A study of Danio rerio with 4 samples.

Results

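Among tcf21-lineage cells sorted from injured zebrafish hearts, 145 of 1453 wells carried the highest shares of 3 heat shock transcripts and are called heat shock cells here. They were selected on the summed share of hsp70l (ENSDARG00000055723), HSPB1 (ENSDARG00000041065) and HSPH1 (ENSDARG00000019874) in a well's gene transcripts: wells with at least 1000 transcripts were ranked over all plates together, and the top 10% with at least 3 such transcripts were taken. The remaining 1308 wells are called the rest. Because the choice rests on measured values, the levels of these 3 genes in the selected wells are given as a description, and a gene was tested only in wells ranked without it.

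The study asked how prrx1b, a paired-related homeobox gene, acts in the epicardium of the regenerating heart. Each group had the same handling. Hearts of adult fish were cryoinjured and taken at 7 days post injury (dpi), unfixed ventricles were dissociated with Collagenase and TrypLE, and live mCherry-positive cells were sorted one to a well for SORT-seq, a plate-based single-cell method with molecular barcodes. The wild-type group (plates 1 and 2) came from siblings of the mutants, and the prrx1b-/- group (plates 1 and 2) from homozygous mutants. The labels give the line of all 4 plates as Tg(tcf21:mCherry), and the methods describe it as a lineage trace in which tcf21:CreERT2 and a ubi:loxP-EGFP-loxP-mCherry reporter were recombined by 4-hydroxytamoxifen in embryos. The sorted cells are therefore descendants of cells that expressed tcf21 early, whatever they expressed at 7 dpi, and incomplete recombination limits what was sampled. The sources do not say which hearts the 2 plates of a genotype came from, so p-values measure the spread between plates, which may be technical.

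The heat shock response is the cell's answer to unfolded protein in the cytosol. Its main transcription factor, HSF1, is held inactive by chaperones in an unstressed cell and, once released, induces HSP70, HSP90, HSP40, HSP110 and small heat shock protein genes together with co-chaperones and ubiquitin. hsp70l encodes an inducible HSP70, HSPH1 the HSP110 that exchanges nucleotide on HSP70, and HSPB1 a small heat shock protein that holds unfolding proteins.

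The wells that passed the minimum held 2914680, 2628350, 3773060 and 3458840 transcripts on the 4 plates. Markers of cardiomyocytes, leukocytes and erythrocytes were at or near 0 in heat shock cells, and none of the 3 such genes that could be tested (MYL7, MPEG1 and SLC4A1, with 5, 10 and 3 transcripts in heat shock cells) passed the edgeR test, 1 of them, MYL7, having an unadjusted p under 0.05, or that of DESeq2. Of the endothelial markers, cdh5, TIE1 and vwf were at 0 in heat shock cells. They had 17, 13 and 2 transcripts in the rest, too few for these zeros to tell the groups apart. The symbol PRRX1 belongs to 2 gene IDs, and the table of names does not say which is prrx1b. ENSDARG00000033971 was at 97.0 to 138 CPM (transcripts scaled to a library of 1000000) over all wells of a plate, whereas ENSDARG00000042027 had 3 to 15 transcripts per plate and none in heat shock cells, so the genotype labels were not checked by the targeted gene.

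Heat shock cells were found on every plate. They made up 43 of 357 wells on wild-type plate 1 (12%, exact binomial 95% interval 8.86 to 15.9), 27 of 364 on wild-type plate 2 (7.42%, 4.94 to 10.6), 37 of 366 on prrx1b-/- plate 1 (10.1%, 7.22 to 13.7) and 38 of 366 on prrx1b-/- plate 2 (10.4%, 7.45 to 14). These intervals cover counting error only. Both mutant plates lay between the wild-type plates. The mean share was 9.73% ± 3.27 (SD, n = 2) in wild type and 10.2% ± 0.193 (SD, n = 2) in prrx1b-/-, a difference of 0.515 percentage points that was smaller than the spread between the wild-type plates (two-sided permutation test, exact, p = 1). With 2 plates against 2, the exact test cannot go below p = 0.333.

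Within heat shock cells, the 3 genes took 1.60% to 11.8% of a well's transcripts with a median of 2.85%, against a median of 0.201% and a highest value of 1.60% in the rest. By plate, the median in heat shock cells was 2.61% and 2.44% in wild type and 3.01% and 2.54% in prrx1b-/-. No gap separated the groups. The last 4 wells taken had 1.62%, 1.62%, 1.62% and 1.602%, and the first 4 left out had 1.602%, 1.602%, 1.59% and 1.58%, so membership is a cut at a set rank. Wells next to such a cut cannot tell a continuous range from a separate kind of cell, which was not tested.

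**Figure D1:**
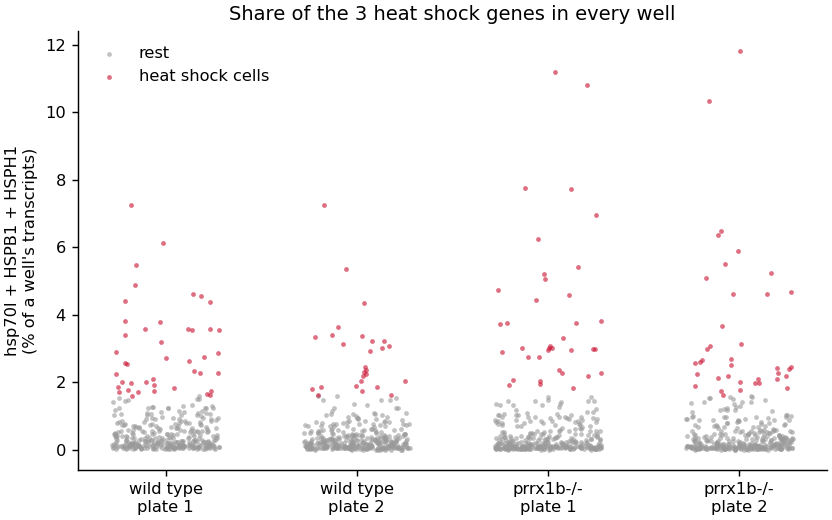
Summed share of hsp70l, HSPB1 and HSPH1 in each of 1453 wells (y axis, percent of a well's transcripts) by plate, with heat shock cells in red and the rest in grey; points are spread sideways for view. The shares run on without a gap at 1.60%, and the highest wells, at 11.8% and 11.2%, were on the prrx1b-/- plates.

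The inducible HSP70 contributed most. hsp70l was the most abundant of the 3 genes in 89 heat shock cells and HSPB1 in 56, whereas HSPH1 led in none. All 3 genes had a transcript in 115 of the 145 wells. hsp70l was at 0 in 2, HSPB1 in 1 and HSPH1 in 28 heat shock cells. Pooled over plates, hsp70l stood at 18496 CPM in heat shock cells and 1139 CPM in the rest, HSPB1 at 12839 and 1399 CPM, and HSPH1 at 1724 and 148 CPM. Across all wells of a plate, the Spearman correlation of the shares ranged from 0.38 to 0.57 for hsp70l with HSPB1, from 0.27 to 0.42 for hsp70l with HSPH1 and from 0.31 to 0.45 for HSPB1 with HSPH1 (4 plates of 357 to 366 wells). These wells share a library and differ in depth, so the values are descriptive.

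To measure each of these genes independently of the choice, the wells were ranked again on the other genes of the trio alone. hsp70l then stood at 11873 and 12377 CPM in the selected wild-type wells and at 16617 and 13520.5 CPM in the selected prrx1b-/- wells, against 1062 to 1937 CPM in the rest of the plates. All selected values lay above all values of the rest, with a log2 fold change of 3.23 (SE 0.12, edgeR adjusted p = 5.7e-71). HSPB1 was at 7472, 7619, 13931 and 10144 CPM in wells selected without it and at 1362 to 1726 CPM in the rest (log2 fold change 2.51, SE 0.14, adjusted p = 9.0e-13). HSPH1 was at 1546, 1197, 1933 and 1656 CPM against 109 to 197 CPM (3.29, SE 0.15, adjusted p = 1.0e-19). The cytosolic HSP70, its HSP110 partner and the small heat shock protein thus each rose in wells selected by the other genes. These sets of 145 wells were not the same. Of the heat shock cells, 108 were selected again without hsp70l and 116 without HSPB1. HSPH1 also marks remote epicardium in the study, but 140 of the 145 wells were selected without it too.

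For all other genes, transcripts were summed over the heat shock cells and over the rest of each plate, with hsp70l, HSPB1 and HSPH1 left out of the counts and of the library sizes, and tested by edgeR with the plate as a block. Of 8390 genes tested, 664 were higher in heat shock cells (7.91%) and 792 lower (9.44%), and the median log2 fold change over all genes was -0.05. These shares are the background for every list below. A gene could pass the filter on low counts through either state alone. Of the higher genes named below, HSPA8 (ENSDARG00000037403), DNAJB4, AHSA1, SESN1, tek, FLI1, BMP4, MYOC, ENSDARG00000075907 and ENSDARG00000077477 needed heat shock cells to pass it. Of the lower genes, COL11A1 and MYH11 needed the rest to pass it, as did those named below without a transcript in heat shock cells. The rise of a gene scarce in the rest, or the fall of one scarce in heat shock cells, was thus favoured in advance. A sum cannot tell fewer cells with a transcript from less RNA per cell.

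Of 78 measured chaperone and co-chaperone genes, 54 passed the filter on low counts, 17 of these rose, 2 fell and 35 were not called, with a median log2 fold change of 0.03. Summed over the lists, their level was 2.57 times that of the rest (38059, 41553, 43188 and 42064 CPM on the 4 plates against 14802 to 16981 CPM). Single wells showed the same: other chaperones took a median of 3.92% of transcripts in heat shock cells and 1.62% in the rest, 137 of the 145 heat shock cells lay above the upper quartile of the rest, and 3 lay below its median. All sums of other chaperones include hsp70.1 and hsp70.3, which may hold reads of the selecting gene hsp70l, as set out below.

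In the HSP70 and HSP110 list, 4 of 9 genes tested rose and none fell. hsp70.3 (ENSDARG00000021924), an inducible HSP70, was at 7639.9 and 6626 CPM in wild-type and 9121 and 9541 CPM in prrx1b-/- heat shock cells, and at 1285, 998, 1006 and 1073 CPM in the rest. The groups did not overlap, and the log2 fold change was 2.81 (SE 0.12, adjusted p = 2.2e-37). hsp70.1 (ENSDARG00000029688), a further inducible copy, was less abundant, at 310.3, 381, 174 and 234 CPM against 18.8 to 36.1 CPM (3.16, SE 0.23, adjusted p = 6.4e-22). A gene listed as HSPA2 (ENSDARG00000092362) and found outside the lists followed at 993 to 1346 CPM against 84.0 to 184 CPM (3.01, SE 0.17, adjusted p = 1.7e-29). The inducible HSP70 genes are near-identical copies, and reads from one may have been counted for another, so their separate values are uncertain. hsp70l, which helped to choose the wells, is also an inducible HSP70, so its reads may be part of these rises. The size of that part was not tested. HSPA4 (ENSDARG00000004754), of the HSP110 group, was at 2576 to 3374 CPM in heat shock cells and 473 to 648 CPM in the rest (2.30, SE 0.13, adjusted p = 4.9e-29).

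The abundant gene HSPA8 (ENSDARG00000068992), the cognate HSP70 of unstressed cells, was at 3665, 4966, 3189 and 4593 CPM in heat shock cells and 3943, 4198, 3885 and 4446 CPM in the rest, with overlapping groups (log2 fold change -0.13, SE 0.11, adjusted p = 0.51). Its low-level namesake HSPA8 (ENSDARG00000037403) was at 46.1 to 109 CPM against 5.50 to 14.2 CPM, with 38 transcripts in 13 heat shock cells (2.64, SE 0.44, adjusted p = 1.1e-06). The second gene named HSPA4 (ENSDARG00000018989) was at 40.8 to 87.7 CPM against 70.0 to 96.4 CPM and was not called (-0.73, SE 0.29, adjusted p = 0.070).

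HSP90AA1 (ENSDARG00000024746), the stress-inducible cytosolic HSP90, was at 13406, 15157, 15779.6 and 13184 CPM in heat shock cells and 2834, 1961, 2391 and 2529 CPM in the rest. The groups were far apart (log2 fold change 2.47, SE 0.11, adjusted p = 9.3e-36). HSP90AB1 (ENSDARG00000029150), the constitutive form, was at 2531 to 3044 CPM and 2740.3 to 3472 CPM and was not called (-0.27, SE 0.11, adjusted p = 0.093). HSPB8, a small heat shock protein that works with BAG3 in chaperone-assisted autophagy, was the one gene of its list that passed the filter, at 1048, 1932, 747 and 852 CPM against 235 to 372 CPM (1.68, SE 0.15, adjusted p = 4.2e-17).

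J-domain proteins hand clients to HSP70, and 3 of 16 tested rose. dnajb1b, the zebrafish form of the main stress-inducible HSP40, was at 95.2 to 234 CPM in heat shock cells and 11.1 to 39.6 CPM in the rest (log2 fold change 2.80, SE 0.30, adjusted p = 4.6e-13). DNAJB4 was at 27.2 to 56.3 CPM against 4.32 to 15.1 CPM (1.93, SE 0.46). DNAJC5 (ENSDARG00000042948), a J protein of vesicle membranes, rose by 1.33 (SE 0.45), but its plates ran from 19.5 to 190.5 CPM, and the high value was that of wild-type plate 2 alone.

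Among 18 co-chaperones and heat shock factors tested, 8 rose and 2 fell. BAG3, the nucleotide exchange factor that directs clients to autophagy, was at 1299.7, 1007, 1745 and 1524 CPM against 205 to 304 CPM (log2 fold change 2.26, SE 0.14, adjusted p = 1.7e-25). AHSA1 (ENSDARG00000028664), the activator of the HSP90 ATPase, rose by 2.62 (SE 0.34, adjusted p = 1.3e-09), BAG2 by 1.96 (SE 0.22) and STIP1, which links HSP70 to HSP90, by 1.42 (SE 0.18). The HSP90 partners FKBP4 and CHORDC1 (ENSDARG00000003973) rose by 1.07 (SE 0.22) and 1.06 (SE 0.20), and FKBP5 by 0.77 (SE 0.16). In wells with 2000 to 6000 transcripts FKBP5 (0.51), FKBP4 (0.79) and CHORDC1 (0.35) were not called, and outside cluster 9, described further on, FKBP5 was not called either (0.33). ST13, which stabilises the ADP state of HSP70, fell by 1.04 on the log2 scale (SE 0.29, adjusted p = 0.0057), although on wild-type plate 2 it was at 136 CPM in heat shock cells and 112 CPM in the rest.

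The collagen chaperone of the endoplasmic reticulum (ER) is encoded by 2 genes named SERPINH1, which moved in opposite directions over all wells. ENSDARG00000019949 was at 872 to 1544 CPM against 435 to 622 CPM (log2 fold change 1.12, SE 0.14), and ENSDARG00000075954 at 68.0 to 234 CPM against 198 to 293 CPM (-0.63, SE 0.20, adjusted p = 0.020). The heat shock factors themselves were scarce. hsf1 was at 0 to 19.5 CPM in heat shock cells and 7.41 to 11 CPM in the rest, and HSF2 at 10.2 to 23.4 and 18 to 30.2 CPM, and neither was called.

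Chaperonins, the barrel-shaped folding machines of the cytosol and mitochondria, had no call by edgeR among 8 genes tested, with 1 at an unadjusted p under 0.05, a median log2 fold change of -0.33 and 0 calls by DESeq2. The mitochondrial pair HSPD1 and HSPE1 had log2 fold changes of 0.05 (SE 0.21) and -0.34 (SE 0.22).

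**Figure D2:**
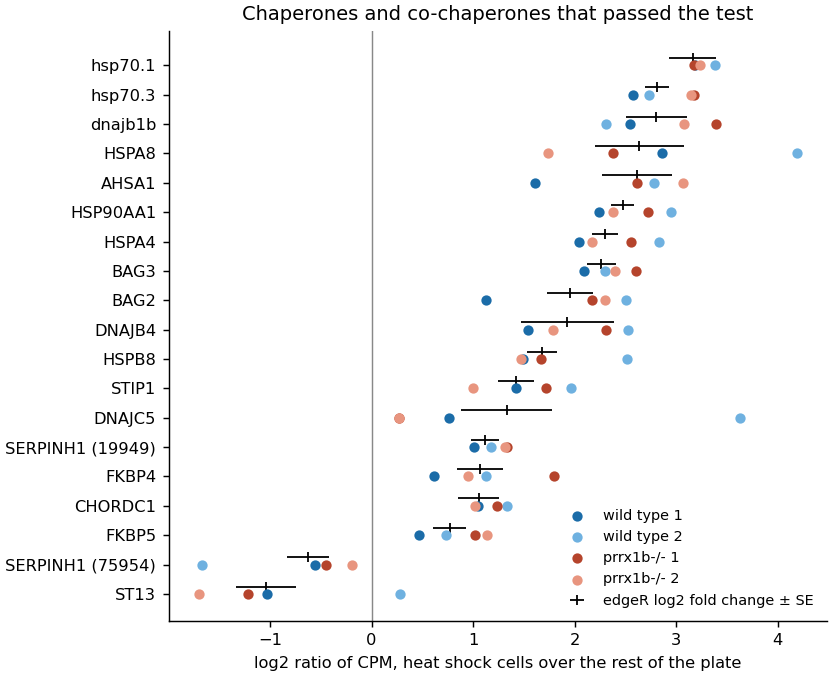
Chaperones and co-chaperones of the lists that passed the test, with the log2 ratio of CPM in heat shock cells over the rest for each plate (coloured points, computed with 0.5 CPM added) and the edgeR log2 fold change with its standard error (black). HSPA8 is ENSDARG00000037403 and HSPA4 is ENSDARG00000004754. For hsp70.1, hsp70.3, dnajb1b, HSP90AA1, HSPA4 and BAG3 all 4 plates lie above 2, whereas DNAJC5 rests on wild-type plate 2 and ST13 changes side on that plate.

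Of 34 ubiquitin and proteasome genes tested, 2 rose and none fell, with a median log2 fold change of -0.37. The summed level of the list was 2.14 times that of the rest (12241, 13062, 13256 and 11494 CPM on the 4 plates against 5299 to 6389 CPM), and most of it was UBB. UBB, a polyubiquitin gene of the stress response, was at 9338, 9647, 10666 and 8883 CPM in heat shock cells and 2508 to 3061 CPM in the rest (1.69, SE 0.11, adjusted p = 1.0e-24). SQSTM1, the p62 receptor for ubiquitinated cargo, was at 369 to 536 CPM against 168 to 259 CPM (0.84, SE 0.17).

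The unfolded protein response of the ER was split, with 4 of 22 genes higher, 11 lower and a median log2 fold change of -0.75. Among its transcription factors DDIT3 (CHOP) was higher by 1.12 (SE 0.14), atf4b by 0.99 (SE 0.12) and XBP1 by 0.62 (SE 0.13), whereas atf6 was lower (-0.65, SE 0.24, adjusted p = 0.042). DDIT3 was at 776 to 1346 CPM in heat shock cells and 337 to 492 CPM in the rest. The protein disulfide isomerase PDIA4 was at 117, 109, 92.1 and 136 CPM against 269 to 373 CPM (-1.58, SE 0.21, adjusted p = 1.7e-09), the ER HSP90 HSP90B1 at 220.1 to 476 CPM against 609 to 701 CPM (-1.04, SE 0.16), the calcium-binding chaperone CALR at 35.8 to 64.4 CPM against 112 to 127 CPM (-1.48, SE 0.29), and PDIA6 and EDEM1 had log2 fold changes of -1.32 (SE 0.24) and -1.16 (SE 0.36). In wells with 2000 to 6000 transcripts, 1 gene of 16 tested was higher and 1 lower, PDIA4 (-1.25) being the named gene still called, against -0.90 for CALR, -0.49 for PDIA6 and -0.43 for EDEM1.

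Genes of the oxidative and metal stress list were not raised together, with 1 of 13 higher and 4 lower. Heme oxygenase HMOX1 was at 87.8, 109, 76.8 and 48.7 CPM in heat shock cells and 329 to 435 CPM in the rest (log2 fold change -2.45, SE 0.23, adjusted p = 4.8e-16). The peroxiredoxin PRDX1 was lower by a log2 fold change of -1.21 (SE 0.23) and the ferritin gene fthl27 by -0.98 (SE 0.16). In wells with 2000 to 6000 transcripts PRDX1 (-0.14) and HMOX1 (-0.82) were not called, and after thinning of every well to 1000 transcripts PRDX1 was at -0.20 and not called, whereas HMOX1 was called (-1.44). SESN1, a p53 target, was at 15.4 to 64.4 CPM against 2.78 to 11 CPM, with 24 transcripts in 18 heat shock cells (2.48, SE 0.52). Of 15 growth arrest and apoptosis genes, 2 rose and 1 fell. GADD45B (ENSDARG00000027744), a stress sensor of the p38 pathway, was at 2312 to 2651 CPM against 725 to 964 CPM (1.40, SE 0.12), bcl2a rose by 0.87 (SE 0.25), and GADD45G was lower by a log2 fold change of -0.96 (SE 0.33). Of 7 cell cycle genes tested, STMN1 (ENSDARG00000033655, 1.80, SE 0.33) and PCNA (0.78, SE 0.25) rose, and for PCNA 36.6% of the transcripts in heat shock cells came from 1 well. In wells with 2000 to 6000 transcripts neither STMN1 (0.54) nor PCNA (0.36) was called.

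Immediate early genes, which are transcribed within minutes of many stimuli, had 21 of 30 tested genes higher and 1 lower, with a median log2 fold change of 0.94. FOS (ENSDARG00000031683) was at 14284, 10422, 11777 and 10364 CPM in heat shock cells and 2733, 2348, 1598 and 1437 CPM in the rest. The groups did not overlap (2.47, SE 0.12, adjusted p = 3.4e-34). JUN, its partner in the AP-1 factor, was at 1850.4 to 2283 CPM against 357 to 592 CPM (2.17, SE 0.13), and ATF3, a stress factor that also pairs with JUN, at 1510.4 to 1924 CPM against 309 to 492 CPM (2.13, SE 0.14). The zinc finger genes egr2a and egr1 rose by 2.36 (SE 0.24) and 1.66 (SE 0.12). CCN2, a secreted target of YAP and TGF-beta signalling, was the gene that was lower (-1.19, SE 0.16).

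Along the whole range of the selecting share, these groups moved in different ways. The wells of each plate were cut into 10 bins of about equal size by the share of hsp70l, HSPB1 and HSPH1. The other chaperones summed to 12274 CPM ± 543 (SD, n = 4 plates) in the lowest bin, 15398 ± 809.9 in the fifth, 26377 ± 3278 in the ninth and 40826 ± 3116 in the highest. The increase therefore ran through the rest and was steepest at the top. Immediate early genes went from 16123 CPM ± 362 to 19356 ± 1806, 36112 ± 3396 and 52147 ± 5372 over the same bins. ER chaperones were level at first, at 2157 CPM ± 255 and 2163 ± 222, and then 1769 ± 294 and 1168 ± 205. Injury epicardium markers were highest in the middle, at 1343 CPM ± 152 in the lowest bin, 2601 ± 623 in the fifth and 468 ± 234 in the highest. These values are descriptive, since wells of a plate share a library.

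**Figure D3:**
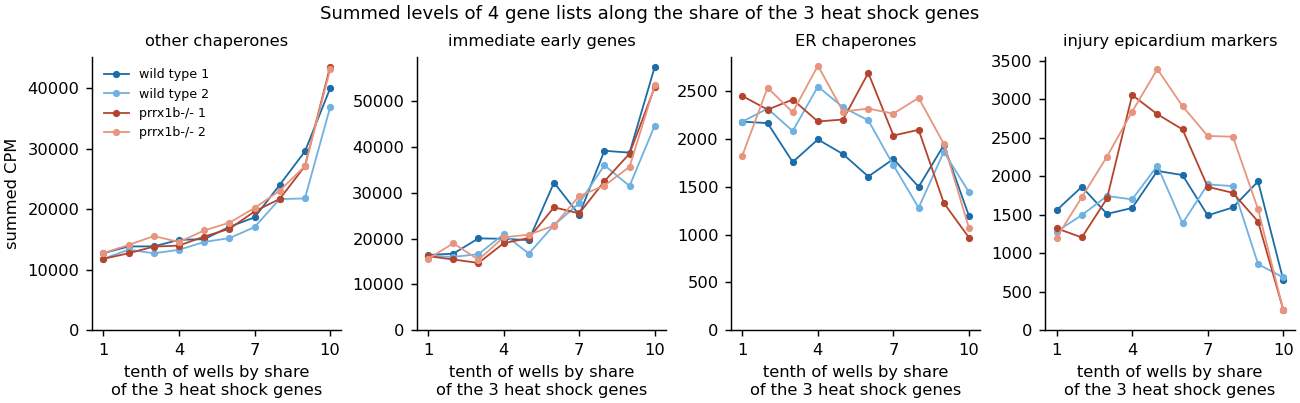
Summed CPM of 4 gene lists (y axes, linear and starting at 0) in 10 bins of wells ordered by the share of the 3 selecting genes (x axis), one line for each plate. Other chaperones and immediate early genes climb to means of 40826 and 52147 CPM in the highest bin, ER chaperones drop in the last bins, and injury epicardium markers are highest in the middle.

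Heat shock cells carried markers of remote epicardium and few of the injury epicardium. The 3 remote markers tested all rose. TCF21, the basic helix-loop-helix factor that defines the lineage, was at 176, 286, 220.1 and 112 CPM in heat shock cells and 93.8, 113, 91.5 and 66.7 CPM in the rest (log2 fold change 0.97, SE 0.22, adjusted p = 0.00032). TBX18, an epicardial T-box factor, was at 287, 340.1, 209.8 and 156 CPM against 67.2 to 91.2 CPM (1.42, SE 0.21), and RTCA, an RNA cyclase used as a marker by the study, at 345 to 623 CPM against 129 to 148 CPM (1.69, SE 0.18). TCF21 was the marker whose groups overlapped, by a narrow margin.

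All 4 injury epicardium markers fell. cldc1 was at 46.8, 54.4, 40.9 and 107 CPM against 395 to 809 CPM (log2 fold change -3.32, SE 0.22, adjusted p = 7.1e-24). ALDH1A2, the retinaldehyde dehydrogenase that makes retinoic acid, was at 351, 177, 61.4 and 29.2 CPM against 589 to 787 CPM (-2.42, SE 0.24), and wt1b, a Wilms tumour factor of activated epicardium, at 102 to 133 CPM against 254 to 296 CPM (-1.36, SE 0.21). adh8a had a log2 fold change of -1.43 (SE 0.25), which rested on the mutant plates and is taken up with the genotypes.

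Of 12 fibroblast genes tested, 8 were lower and none higher, with a median log2 fold change of -0.79. The pentraxin PTX3 (ENSDARG00000068275) was at 87.8, 81.6, 56.3 and 14.6 CPM against 699 to 1069 CPM (-3.96, SE 0.22, adjusted p = 4.0e-29). FN1 (ENSDARG00000019815), the less abundant of the fibronectin genes, was at 392 to 517 CPM against 1437 to 2147 CPM (-2.05, SE 0.14). The far more abundant FN1 (ENSDARG00000006526) differed much less, at 12610 to 17709 CPM against 15624 to 24489 CPM. Both genes named COL12A1, a collagen on the surface of fibrils, were lower, with -2.77 (SE 0.15) for ENSDARG00000078322 and -2.53 (SE 0.15) for ENSDARG00000019601. Of 15 collagens, 6 were lower and 2 higher, with a median log2 fold change of -0.20. The largest differences were those of the fibrillar collagen XI genes col11a1b (-3.68, SE 0.26) and COL11A1 (-3.48, SE 0.42). COL11A1 had 7 transcripts in 5 heat shock cells, 42.9% of them from 1. In wells with 2000 to 6000 transcripts, 1 of 14 collagens was higher and 2 lower, with a median of 0.11. There col11a1b (-1.47) was not called, COL11A1 was not tested, and both COL12A1 genes were called (-0.89 and -0.81). After thinning to 1000 transcripts, 1 of 14 was higher and 3 lower, with a median of 0.06, and col11a1b was called (-3.45).

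Pericyte markers were mixed, with 4 of 9 higher and 3 lower. NOTCH3, a receptor of mural cells, was at 123 to 220.1 CPM against 56.9 to 83.7 CPM (1.27, SE 0.23), and TAGLN (ENSDARG00000033466), an actin-binding protein, at 1095 to 1602 CPM against 553 to 822 CPM (0.92, SE 0.13). The other gene named TAGLN (ENSDARG00000045408) went the other way, at 109 to 219 CPM against 254 to 337 CPM. RGS5 rose by 0.94 (SE 0.24), but wild-type plate 1 stood at 972 CPM and the other plates at 133 to 218 CPM. MYH11, smooth muscle myosin, was lower (-1.03, SE 0.34). So was acta2 (-0.83, edgeR adjusted p = 0.030), though not on prrx1b-/- plate 2. In the endothelial list tek, the angiopoietin receptor, was at 14.6 to 54.4 CPM against 0.785 to 2.56 CPM, with 16 transcripts in 9 heat shock cells and 18 in 11 wells of the rest (3.94, SE 0.64), and FLI1 rose by 2.13 (SE 0.61) with 13 transcripts. FLI1 was at 3.53 to 5.62 CPM in the rest. Both genes passed the filter on low counts through heat shock cells alone, so only a rise could be seen. Neither was tested in wells with 2000 to 6000 transcripts or after thinning. The thrombocyte gene GP1BB rose by 1.26 (SE 0.40), with itga2b at 0 in heat shock cells and at 1 transcript in the rest. THBS1, the other gene of that list tested, was not called, at 146, 395, 143 and 122 CPM against 158, 204, 239 and 221 CPM. GP1BB was not called in wells with 2000 to 6000 transcripts (0.47) or outside cluster 9 (1.25). In wells with 2000 to 6000 transcripts the pericyte list had 1 gene higher and 1 lower with a median log2 fold change of -0.38, against 0.59 over all wells, and RGS5 (0.12) and NOTCH3 (0.59) were not called. The part of other cell types in these values was not tested.

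The genes with the largest increases over the whole table included 3 chaperones, hsp70.1, hsp70.3 and the gene listed as HSPA2. These chaperones may hold reads of hsp70l. Among the others, BMP4, a secreted growth factor of the TGF-beta family, was at 58.5, 81.6, 118 and 63.3 CPM in heat shock cells and 4.71 to 13.3 CPM in the rest (log2 fold change 3.12, SE 0.42, adjusted p = 1.8e-09). tns2b, a tensin of focal adhesions, was at 181 to 268 CPM against 22 to 35.1 CPM (2.95, SE 0.24). MYOC, encoding the secreted protein myocilin, rose by 3.21 (SE 0.47), but its 39.0 transcripts came from 9 heat shock cells, 28.2% of them from 1. GPR17, a G protein-coupled receptor, rose by 2.83 (SE 0.38), and 3 genes known by ID alone (ENSDARG00000007665, ENSDARG00000075907 and ENSDARG00000077477) by 2.87 to 3.00.

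The 10 genes with the largest fitted decreases had no transcript in heat shock cells. They passed the filter on low counts through the rest alone, and their rank depends on the prior count. Against a floor of 3 counts over all heat shock cells, which is 4.65 CPM, they were at least 2.39-fold to 5.84-fold lower. TENT5C, a poly(A) polymerase, was at 20.1 to 42.4 CPM in the rest and at least 5.84-fold lower. jam2b, a junctional adhesion molecule, was at 20.2 to 24.7 CPM and at least 4.84-fold lower. The others were si:dkey-31e10.1, bcl3, lpar2a, shroom2a, rin1a, ugt2a5, ACTL6A and ndufa4b. At 645018 transcripts in all, heat shock cells could not show larger folds for such genes. Of the named genes with transcripts, PTX3 (ENSDARG00000068275) was 15.5-fold lower and col11a1b 12.9-fold lower over all wells.

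Heat shock cells yielded fewer transcripts. The median per well was 3712 and 2744 on the wild-type plates and 5095 and 4847 on the prrx1b-/- plates, against 6654, 5473, 8562 and 7907 in the rest. It was lower on 4 of 4 plates, with a mean difference of -3049.6 ± 310.3 transcripts (SD, n = 4; two-sided sign-flip permutation test, exact, p = 0.13, which no set of 4 plates can go below). Spike-in RNA, added in equal amount to each well, had medians of 1223 in heat shock cells and 1242 in the rest (p = 0.25, exact), so transcripts per spike-in transcript were 3.37 against 5.98 (p = 0.13, exact). At an equal depth of 1000 transcripts, the median number of genes was 564 in heat shock cells and 567 in the rest (p = 0.625, exact).

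Mitochondrially encoded transcripts took a mean of 1.80% of transcripts in heat shock cells and 2.45% in the rest, lower on 4 of 4 plates (p = 0.13, exact). Ribosomal protein transcripts took 7.77% against 10.8% (p = 0.13, exact). Gene by gene, 62 of 70 cytosolic ribosomal protein genes fell and none rose, with a median log2 fold change of -0.53. In wells with 2000 to 6000 transcripts 11 of 68 passed, with a median of -0.37.

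Depth moved with the state, so the comparison was repeated where depth was held more alike. In wells with 2000 to 6000 transcripts, a range chosen after seeing the difference, 216 of 3017 genes were called, and 203 of them were also called over all wells, 1 with the opposite sign. Chaperones stayed higher there: 10 of 32 tested rose and none fell, with 1.95 for hsp70.3, 1.89 for HSP90AA1 and 1.84 for HSPA4. Immediate early genes had 12 of 28 higher and 1 lower. Other lists kept fewer calls: 2 of 3 remote epicardium markers rose, 2 of 4 injury epicardium markers fell (cldc1 with a log2 fold change of -2.64 and adh8a with -1.89, against -0.76 for ALDH1A2 and -0.66 for wt1b) and 3 of 10 fibroblast genes fell, with -0.59 for PTX3 and -0.28 for FN1 (ENSDARG00000019815), which were not called. After every well was thinned to 1000 transcripts, 379 of 2304 genes were called, 364 of them in common, with 11 of 29 chaperones and 16 of 28 immediate early genes higher. In the thinned wells all 4 injury epicardium markers fell (-1.60 for ALDH1A2), as did 5 of 10 fibroblast genes, with -3.68 for PTX3 and -1.89 for FN1 (ENSDARG00000019815).

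To see where heat shock cells lay among the other cells, all wells were clustered without any chaperone gene. Of 10 clusters, numbered by size, heat shock cells were most frequent in cluster 9, which held 50 of the 145. They were 48.1% of its 104 wells, 14 of 32 and 7 of 27 wells on the wild-type plates and 13 of 18 and 16 of 27 on the prrx1b-/- plates. The genes leading that cluster were FOS, egr2a and fgl2b, followed by hsp70.3. Its remote epicardium markers summed to 989 CPM against 313 CPM in all other wells, and its injury epicardium markers to 319 CPM against 1907 CPM.

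The other heat shock cells were spread over several cell groups. Cluster 2 (led by RGS5) held 32, cluster 4 (led by ADM and MDK) 25, cluster 3 (led by elnb) 15 and cluster 8 (led by MYOC and mgp) 13, which were 15.8%, 16.3%, 9.09% and 11.5% of the wells in each. The remaining clusters had 1 to 3 heat shock cells apiece. Among these were cluster 1 with 3 of 257 wells, cluster 5 with 2 of 143, cluster 6 with 1 of 130 and cluster 10, led by COL11A1, with 1 of 71.

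**Figure D4:**
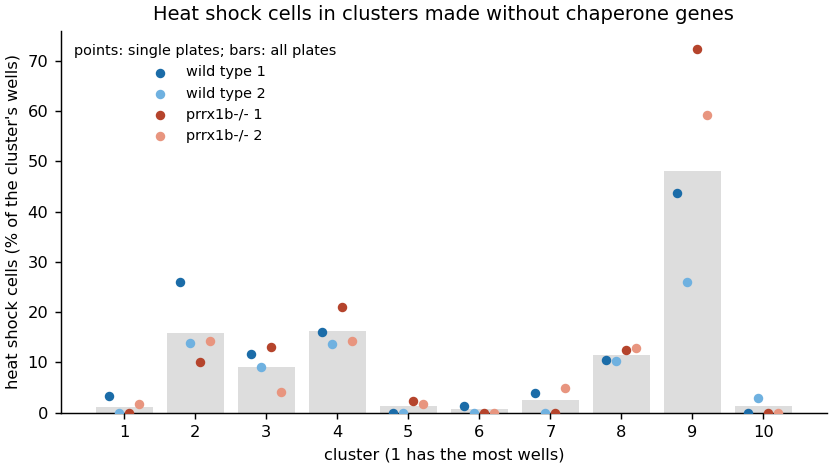
Share of heat shock cells in 10 clusters made without chaperone genes (y axis, percent of the cluster's wells; bars for all plates, coloured points for single plates). Cluster 9 stands at 48.1%, clusters 2, 4, 3 and 8 at 9.09% to 16.3%, and the other clusters below 3%.

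Inside cluster 9, heat shock cells were compared with the 54 other wells of the cluster. Of 919 genes tested 15 were called, 11 higher and 4 lower. The higher genes included hsp70.3 (log2 fold change 0.95), HSPA4 (0.94), HSP90AA1 (1.12), HSPB8 (1.31) and UBB (0.94), and 4 of the 17 chaperones tested rose. Of 27 immediate early genes none was called by edgeR, 6 had an unadjusted p under 0.05, and the median log2 fold change was 0.16. None of the 3 remote epicardium markers was called either, with 1 at an unadjusted p under 0.05. The clustering had used 25 immediate early genes and all 3 remote epicardium markers, so wells of a cluster are alike in them by construction.

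Outside cluster 9, a comparison added after seeing the data, the remaining 95 heat shock cells still differed from the other wells. Of 8376 genes 973 were called, 890 of them in common with the comparison over all wells and none with the opposite sign. There, 15 of 53 chaperones rose and 1 fell, with 2.53 for hsp70.3, 2.39 for HSP90AA1 and 2.16 for BAG3. Immediate early genes had 16 of 30 higher and 1 lower, all 3 remote epicardium markers rose, and all 4 injury epicardium markers fell.

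Within heat shock cells, prrx1b-/- and wild-type plates were then compared. A gene could pass the filter on low counts through either genotype alone. AHSA1 and MID2 needed the prrx1b-/- plates to pass it, and adh8a, ALDH1A2, ifi27.2 and si:dkey-238c7.13 the wild-type plates. The direction of such differences was thus favoured in advance. Of 2557 genes tested by edgeR 3 were higher in prrx1b-/- (0.117%) and 14 lower (0.548%), and 321 had an unadjusted p under 0.05. One chaperone-list gene was among them. AHSA1 (ENSDARG00000028664), the HSP90 activator, was at 23.4 and 40.8 CPM in wild-type and 169 and 224 CPM in prrx1b-/- heat shock cells (log2 fold change 2.68, SE 0.49, adjusted p = 0.016). In the rest it was at 7.33 and 5.50 CPM in wild type and 27.2 and 26.3 CPM in prrx1b-/-, so both genotypes had more of it in heat shock cells. Of its transcripts in heat shock cells, 19.8% came from 1 well.

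The other genes called higher by edgeR were TCIM and MID2. DESeq2 called 1 gene higher and 12 lower, so at most 1 of AHSA1, TCIM and MID2 was called by it. TCIM, a small transcriptional regulator, was at 199 and 340.1 CPM in wild-type and 916 and 799 CPM in prrx1b-/- heat shock cells (1.72, SE 0.28, adjusted p = 0.0088), whereas the rest stood at 311 to 356 CPM on all 4 plates. MID2, a ubiquitin ligase of microtubules, was at 17.6 and 13.6 CPM against 138 and 209 CPM (3.31, SE 0.58, adjusted p = 0.013), and at 31.4 to 64.3 CPM in the rest.

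The largest fitted decrease was that of si:dkey-238c7.13 (ENSDARG00000092191), with 105 transcripts in 24 wild-type heat shock cells and none in prrx1b-/- ones, at least 57.5-fold lower against a floor of 3 counts over the prrx1b-/- heat shock cells, or at least 25.5-fold lower from wild-type plate 2 alone. A single well held 36.3% of the transcripts on wild-type plate 1 and 57.2% on plate 2. The gene was also low in the rest of the mutant plates, at 52.8 and 48.5 CPM against 679.7 and 1043 CPM in wild type. The interferon-inducible gene ifi27.2 had the same pattern in both states, at 287 and 340.1 CPM in wild-type and 20.5 and 9.74 CPM in prrx1b-/- heat shock cells (-4.33, SE 0.47, adjusted p = 0.00022) and at 184 and 226 CPM against 19.1 and 14.2 CPM in the rest.

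Among the injury epicardium markers, adh8a and ALDH1A2 were different. By contrast, wt1b (111 and 122 CPM in wild type, 133 and 102 CPM in prrx1b-/-) overlapped between the genotypes in heat shock cells. So did cldc1 (46.8 and 54.4 against 40.9 and 107 CPM). adh8a, an alcohol dehydrogenase, was at 398 and 354 CPM in wild-type heat shock cells and 35.8 and 39.0 CPM in prrx1b-/- ones (log2 fold change -3.36, SE 0.37, adjusted p = 0.00022), whereas the rest stood at 430.1 and 350.3 CPM in wild type and 402 and 412 CPM in prrx1b-/-. On wild-type plate 2, 77.0% of the adh8a transcripts in heat shock cells came from 1 well, and on wild-type plate 1, 36.8%. ALDH1A2 was at 351 and 177 CPM against 61.4 and 29.2 CPM (-2.66, SE 0.46, adjusted p = 0.012), with the rest at 589 to 787 CPM. Of its transcripts in heat shock cells, 31.9% came from 1 well. The complement gene c4b was at 667 and 163 CPM against 81.9 and 102 CPM (-2.34, SE 0.49, adjusted p = 0.043), and wild-type plate 1 was the high one. In wells with 2000 to 6000 transcripts, 5 of the 8 genes chosen for this comparison were called. adh8a (-2.96), ALDH1A2 (-1.61) and c4b (-0.90) were not. Fewer heat shock cells with these transcripts and less RNA per cell cannot be told apart in the sums.

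The cells behind these sums were unevenly placed among clusters. Cluster 2, among whose leading genes is adh8a, held 14 of 43 and 4 of 27 heat shock cells on the wild-type plates and 7 of 37 and 7 of 38 on the prrx1b-/- plates, and cluster 9 held 14, 7, 13 and 16. The part of this in the genotype differences was not tested. The sources do not say how hearts were divided between plates, so genotype and the hearts sampled cannot be told apart.

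The interaction term tested whether heat shock cells differ from the rest by a different amount in prrx1b-/-. Of 9971 genes tested 3 had a more positive difference in prrx1b-/- (0.0301%) and 11 a more negative one (0.110%), and 450 had an unadjusted p under 0.05. DESeq2 called 3. No gene of the chaperone lists was among the calls of edgeR, out of 61 tested, 3 had an unadjusted p under 0.05, and DESeq2 called 0. adh8a had the smallest p (interaction -3.36 on the log2 scale, SE 0.43, adjusted p = 3.0e-11). But adh8a was not called in wells with 2000 to 6000 transcripts (-2.36, adjusted p = 0.30) and was at 0.60 within cluster 9 (adjusted p = 0.98). TCIM had the smallest p on the positive side (1.66, SE 0.32, adjusted p = 0.00035). TCIM was also not called at 2000 to 6000 transcripts (1.68, adjusted p = 0.12) or within cluster 9 (0.63, adjusted p = 0.98).

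**Figure D5:**
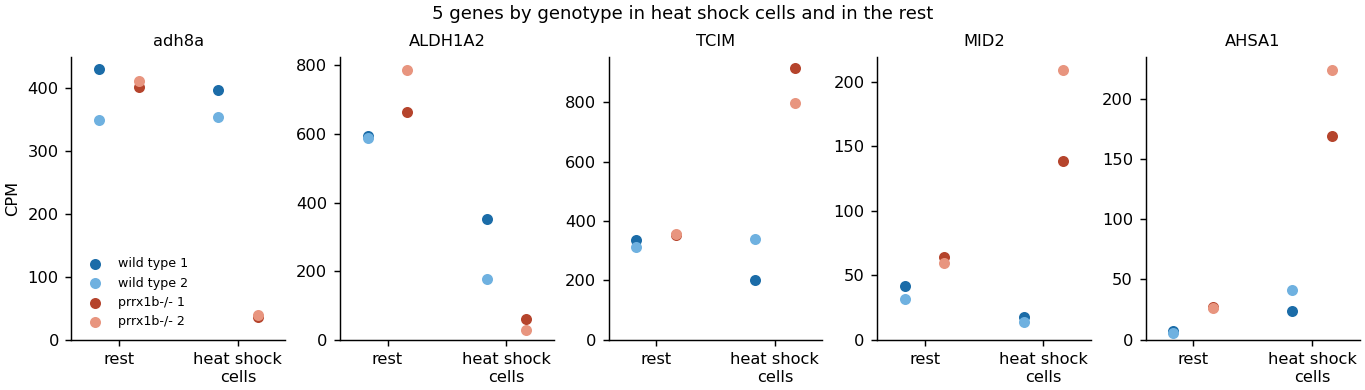
Levels of adh8a, ALDH1A2, TCIM, MID2 and AHSA1 (y axes, CPM, linear and starting at 0) in the rest and in heat shock cells, one point per plate coloured by plate. adh8a stands at 350.3 to 430.1 CPM except in heat shock cells of the prrx1b-/- plates, at 35.8 and 39.0 CPM, and TCIM, MID2 and AHSA1 are highest there.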

How the data were processed

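The deposited tables hold, per the methods, SORT-seq libraries mapped to zebrafish assembly Zv9 (BWA 0.6.2 in the submitters' processing notes). The authors deposited expected counts: molecular barcodes per gene and well, corrected for barcodes drawn more than once, and not scaled for depth. Each plate has 384 wells, 1536 in all, of which 1453 had at least 1000 transcripts of genes, spike-ins excluded (the study states its own minimum in reads). All plates use the same 384 well barcodes. One cell was sorted per well, and doublets were not looked for.

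The members, gene lists and tests were chosen with earlier results of these data known. Counts were summed per plate and state, rounded, filtered with filterByExpr, scaled by TMM and tested with edgeR 4.0.16 quasi-likelihood in R 4.3.3, with Benjamini-Hochberg adjustment over all genes and a threshold of 0.05. The SE of a log2 fold change was derived from the test, as its absolute value divided by the square root of the F statistic. The plate was a block in comparisons of heat shock cells with the rest. CPM are transcripts per 1000000, the 3 selecting genes left out, except in the description of these. Counts are 3′ tags, so no length scaling was used. Symbols came from a table of gene IDs (16179 of 20880 detected genes) and are printed as listed there. Clusters were made by k-medoids on 1 minus Pearson's correlation over 1326 variable genes, with 20 noisy genes left out.

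Named genes were every called chaperone, the 10 largest fitted changes each way among genes with at least 50 transcripts and one direction on all plates, at most 4 called genes of each other list, and at most 5 each way for genotype and interaction. Genes outside this rule (HSPA8 and HSPA4 copies, HSP90AB1, HSPD1, HSPE1, hsf1, HSF2, DDIT3, atf4b, XBP1, atf6, HSP90B1, egr1, CCN2, bcl2a and markers at 0) were named after their values were seen. Alternatives were DESeq2 1.42.0, its size factors, no filter, each plate left out, the block, other shares of wells (5%, 20% or within each plate), other depth limits, thinning, clusters, and 3 wells over 30% mitochondrial left out. The fits were tested on simulated data.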

Additional observations from a re-analysis of the deposited data

Results flagged for a closer look

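The interaction test gave 8 named genes whose difference between heat shock cells and the rest was not the same in the genotypes, given as log2 values for prrx1b-/- minus wild type. adh8a (-3.36, SE 0.43, adjusted p = 3.0e-11) was at 398 and 354 CPM in wild-type and 35.8 and 39.0 CPM in prrx1b-/- heat shock cells, and 77.0% of the transcripts on wild-type plate 2 came from 1 well. si:dkey-238c7.13 (-8.03, SE 1.90) had no transcript in prrx1b-/- heat shock cells, so its size depends on the prior count and is no bound. MMP9 (-4.17, SE 1.03) rested on 21.0 transcripts in 4 heat shock cells, 81.0% of them from 1 well. elnb (-4.08, SE 0.62) was at 58.5 and 313 CPM in wild-type and 15.4 and 19.5 CPM in prrx1b-/- heat shock cells, with wild-type plate 2 the high one. c3a.1 (-3.93, SE 0.91), a complement gene, had 15 transcripts in heat shock cells. On the positive side stood TCIM (1.66, SE 0.32), ENSDARG00000076825 (2.49, SE 0.62) with 47.0 transcripts in heat shock cells, and acta2 (2.02, SE 0.47), of which 65.9% came from 1 well of prrx1b-/- plate 2.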

How the results depend on the processing

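Over 76 named genes of heat shock cells against the rest, 1110 of the alternative values kept direction and call, 149 kept direction without the call and 6 reversed, all within cluster 9: SERPINH1 ENSDARG00000019949 (-0.044), SERPINH1 ENSDARG00000075954 (0.036), SQSTM1 (-0.11), GADD45B (-0.10), COL12A1 ENSDARG00000078322 (0.18) and FN1 ENSDARG00000019815 (0.68). The 1456 calls became 216 at 2000 to 6000 transcripts, 15 within cluster 9 and 379 after thinning, where fewer genes were tested, 1068 with DESeq2, 1346 with no replicate block, and 999 to 1262 without single plates. The difference in the share of wells reversed to -0.011 points when 10% were taken within each plate, which fixes the shares, and to -1.80 without wild-type plate 2, the lowest of -1.80 to 2.83 points over plates left out. Median genes per well reversed to 5 at the highest 20% of wells, and spike-ins to 9.26 with at least 2000 transcripts.

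For genotype within heat shock cells, the 17 calls became 32 with no filter, 48 with the replicate block, 26 to 88 without single plates (55 without wild-type plate 1, 88 without wild-type plate 2, 33 without prrx1b-/- plate 1), 5 at the highest 20% of wells, 8 at 2000 to 6000 transcripts, and 0 by edgeR at the highest 5% and within cluster 9, where 83 and 100 genes had an unadjusted p under 0.05. DESeq2, run on all heat shock cells, called 13, 1 higher and 12 lower. The 14 interaction calls became 7 with no filter, 7 with no replicate block, 3 with DESeq2, 1 at the highest 5%, 6 at the highest 20%, 28 with 10% within each plate, 1 at 2000 to 6000 transcripts, 0 by edgeR within cluster 9 (61 at an unadjusted p under 0.05), and 3 to 36 without single plates (36 without wild-type plate 2, 6 without prrx1b-/- plate 1, 3 without prrx1b-/- plate 2). Reversed interactions were acta2 (-0.20 without prrx1b-/- plate 2 and up to 3.98 without others, -2.50 at 2000 to 6000 transcripts), c3a.1 (6.17 at the highest 5%), si:dkey-238c7.13 (0.97 at the highest 20%) and adh8a (0.60 within cluster 9). The cause was not tested. The sources do not say whether the plate numbers pair the plates. Deviations of same-numbered plates correlated at -0.08 over 2557 genes, which with 2 plates a genotype does not settle it. The range of 2000 to 6000 transcripts, the wells outside cluster 9 and the genotype tests inside it were chosen after seeing the data. With 2 plates a genotype and 645018 transcripts in heat shock cells, small genotype differences were not detectable at this depth.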

Other observations

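The genes RDH10 and DHRS3 were picked after their values were seen, so they stand for no group. RDH10 (ENSDARG00000012369), the retinol dehydrogenase that acts before ALDH1A2, was at 316 and 122 CPM in wild-type and 159 and 131 CPM in prrx1b-/- heat shock cells, and at 779.7 and 749 CPM and 1243 and 1378 CPM in the rest (edgeR log2 fold change of heat shock cells against the rest -2.60, SE 0.19, adjusted p = 1.6e-21, interaction -1.46, SE 0.35, adjusted p = 0.032). DHRS3 (ENSDARG00000044982), which reduces retinaldehyde back to retinol, was at 316 and 149.7 CPM in wild-type and 40.9 and 68.2 CPM in prrx1b-/- heat shock cells (edgeR log2 fold change of prrx1b-/- against wild type -2.22, SE 0.44, adjusted p = 0.034), and at 104 to 194 CPM in the rest, with wild-type plate 1 above the rest and both prrx1b-/- plates below it. In the genotype test DHRS3 needed the wild-type plates to pass the filter on low counts, so a decrease was favoured in advance. Over all plates DHRS3 was not called between heat shock cells and the rest (-0.21, adjusted p = 0.64).

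hapln1a, which links hyaluronan to proteoglycans in the matrix and was likewise picked after its values were seen, was at 861, 2191, 4089 and 2791 CPM in heat shock cells and 523 to 710.2 CPM in the rest (edgeR log2 fold change 1.72, SE 0.15, adjusted p = 1.6e-17). It was higher on 4 of 4 plates. The interaction with genotype was not called (0.97, SE 0.26, adjusted p = 0.084).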
